A study of Rattus norvegicus with 6 samples.

Results

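The genes described here are 9 that mark resident microglia and other macrophages: Cx3cr1, P2ry12, Tmem119, Csf1r, Siglec10, Aif1, Spi1, Spic and Il10. They were taken by name from the deposited table of 20422 genes, and each had 1 entry. Poly(A) RNA was sequenced from primary oligodendrocyte cultures of postnatal day 1 rats. Cells had received either 0.01 mM water-soluble cholesterol or phosphate-buffered saline (PBS), both for 12 h, with 3 libraries for each treatment. A control for a cholesterol carrier was not analysed here, and no label says whether the libraries of a treatment came from separate cultures, so p-values measure the spread between these libraries, which may be technical.

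Microglia are the resident macrophages of the brain and are a common companion of glial cultures made from newborn cortex. Their resting state is recognised by surface receptors that read signals from neurons and other glia, above all the fractalkine receptor CX3CR1, the ADP receptor P2RY12, the colony-stimulating factor receptor CSF1R and the membrane protein TMEM119. Behind them stands PU.1, the product of Spi1, an ETS-family transcription factor that macrophages need for their identity. Its relative SPI-C, the product of Spic, is known in mice from the red pulp macrophages of the spleen that recycle iron from heme. The comparison asks whether these genes moved together in the cholesterol-treated cultures or each by its own amount.

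All 9 genes passed the filter on low counts, and 8 of them fell in the cholesterol libraries while 0 rose (edgeR quasi-likelihood test, adjusted p under 0.05). Over all 16182 genes tested, 19.7% were called lower and 20.5% higher. For the same 8 genes every cholesterol library lay below every PBS library, which held for 25.7% of all genes. The falls were of unequal size. Il10, Cx3cr1, Siglec10 and Spic had log2 fold changes between -1.98 and -1.57, Tmem119 stood at -0.96, Spi1 and Aif1 at -0.75 and -0.72, and Csf1r at -0.38. P2ry12 did not pass (-0.31). The median over the 9 was -0.96, against 0.01 over all genes tested. In RNA from whole cultures, fewer cells of a type and less RNA per cell cannot be told apart.

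**Figure D1:**
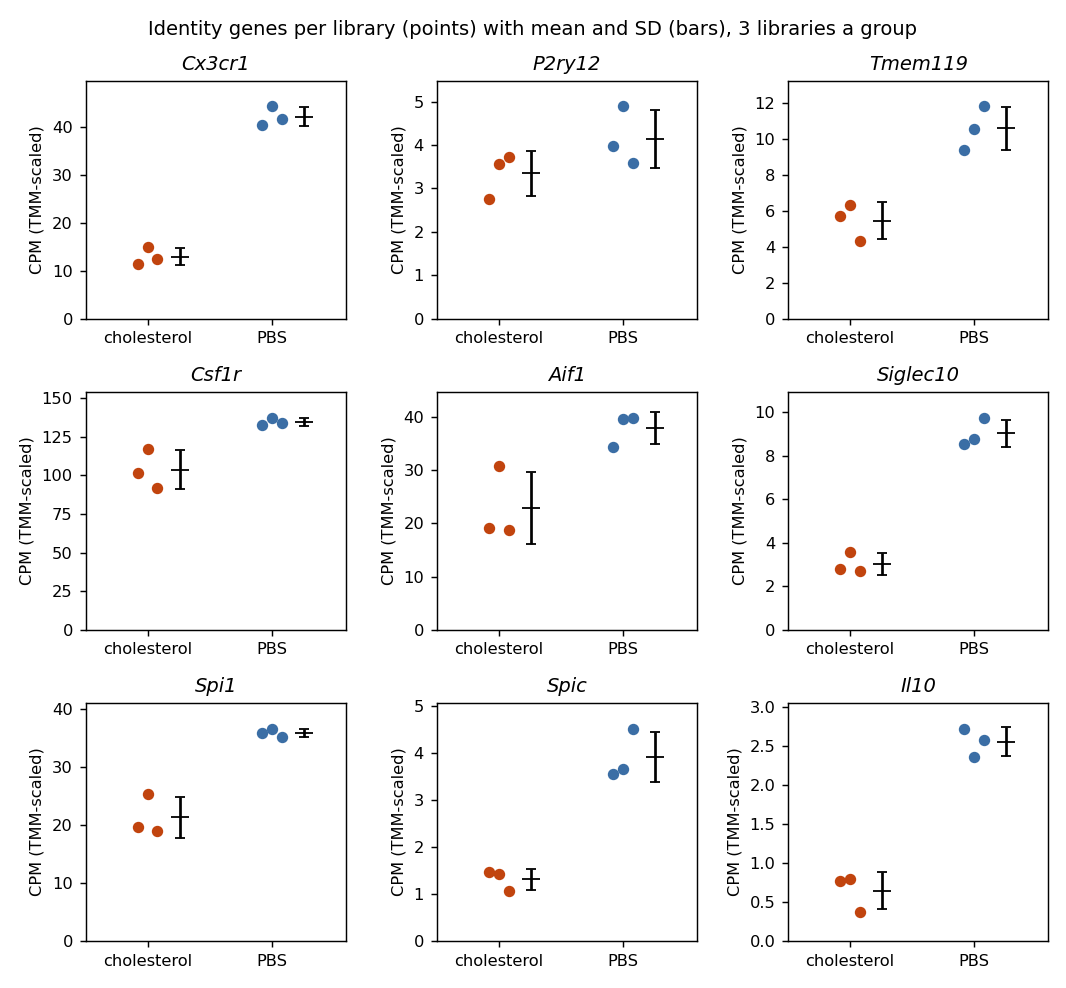
CPM (counts scaled to library size by TMM) of the 9 genes in each library, cholesterol left of PBS, with the group mean and SD (n = 3 each) as bars to the right of the points. The 3 cholesterol points lie below the 3 PBS points in 8 panels, while those of P2ry12 overlap.

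The label of the cells was checked against marker lists. Oligodendrocyte lineage markers summed to between 23738 and 27423 CPM in cholesterol libraries and between 15497 and 15857 CPM in PBS libraries. The 10 genes of a pan-leukocyte and myeloid list, such as Ptprc, Laptm5, Itgb2 and Cd68, summed to between 596 and 732 CPM in cholesterol libraries and between 772 and 796 CPM in PBS libraries, so myeloid transcripts were present in every library. The largest part of that sum was Fcer1g, at 366 ± 15.9 CPM in cholesterol libraries and 352 ± 1.54 CPM in PBS libraries (SD, n = 3 each), which overlaps 3 other annotated genes and did not pass (log2 fold change 0.05). Library totals ranged from 63769532 to 70878378 counts, at which 3 counts correspond to at most 0.0470 CPM.

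Sequence upstream of 4 of the 9 genes was found in the RefSeq table for build GRCr8, matched by symbol: Csf1r, whose fall was small, and Cx3cr1, Siglec10 and Spic, whose falls were large. They are shown so that a gene with a small fall and genes with large ones can be set side by side. Each line gives the 250 bases before the start that the table uses, 5′ to 3′ on the gene's strand, and capitals mark the PU.1-type core GAGGAA on either strand. The regions are chr18:56834129-56834378 (+ strand) for Csf1r, chr8:128677067-128677316 (- strand) for Cx3cr1, chr1:102953668-102953917 (+ strand) for Siglec10 and chr7:24964901-24965150 (- strand) for Spic.
Csf1r: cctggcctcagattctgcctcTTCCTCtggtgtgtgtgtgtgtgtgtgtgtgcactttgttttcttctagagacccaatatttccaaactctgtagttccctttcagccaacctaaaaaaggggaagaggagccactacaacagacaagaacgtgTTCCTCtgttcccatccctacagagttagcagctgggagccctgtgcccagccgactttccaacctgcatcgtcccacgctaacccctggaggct
Cx3cr1: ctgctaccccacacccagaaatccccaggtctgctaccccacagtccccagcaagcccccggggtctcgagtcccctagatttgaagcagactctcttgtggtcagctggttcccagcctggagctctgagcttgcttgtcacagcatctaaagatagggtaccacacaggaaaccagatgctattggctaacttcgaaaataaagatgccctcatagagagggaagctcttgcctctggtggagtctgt
Siglec10: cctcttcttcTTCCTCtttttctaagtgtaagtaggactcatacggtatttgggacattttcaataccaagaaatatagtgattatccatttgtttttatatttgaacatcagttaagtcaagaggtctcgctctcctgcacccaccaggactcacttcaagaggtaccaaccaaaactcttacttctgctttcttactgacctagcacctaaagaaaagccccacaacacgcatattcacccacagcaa
Spic: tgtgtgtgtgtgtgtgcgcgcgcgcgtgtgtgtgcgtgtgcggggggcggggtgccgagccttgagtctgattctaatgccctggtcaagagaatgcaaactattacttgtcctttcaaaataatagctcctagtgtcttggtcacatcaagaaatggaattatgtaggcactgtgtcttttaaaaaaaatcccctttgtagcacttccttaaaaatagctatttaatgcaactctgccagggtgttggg

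The core occurred 2 times upstream of Csf1r, beginning 229 and 95 bases before the start, and 1 time upstream of Siglec10, at 240 bases, each time on the strand opposite to the printed one. These letters do not occur in the windows of Cx3cr1 and Spic. Of all 33469 upstream windows of the same length, 23.3% held the core. A match of letters is a description, and the 2 windows with the core belong to a gene with a small fall and a gene with a large one.

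Coordinates of the genes themselves are given as in the deposited table. The submitters' processing notes name build rn6, the last gene on chromosome 1 of the table ends at 260311843, and which build the coordinates follow was not settled.

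Cx3cr1, the receptor for the neuronal chemokine fractalkine, lies at chr8:119782595-119800014 (- strand). It was at 11.4, 14.9 and 12.5 CPM in the cholesterol libraries, against 40.4, 44.3 and 41.6 CPM in the PBS libraries. The groups were far apart and the values within each were close together. The log2 fold change was -1.70 ± 0.093 (SE), which leaves 30.7% of the PBS level (adjusted p = 1.20e-06), and 83 of the 16182 genes had a lower fold change.

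Siglec10 encodes a sialic acid-binding receptor of immune cells with inhibitory signalling motifs, at chr1:93817335-93825931 (+ strand). It was at 2.79, 3.59 and 2.70 CPM in the cholesterol libraries, against 8.56, 8.78 and 9.76 CPM in the PBS libraries. Its fall was about as large as that of Cx3cr1, and left 33.6% of the PBS level (log2 fold change -1.58 ± 0.138, SE, adjusted p = 1.61e-05).

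Tmem119, a membrane protein used to tell microglia from infiltrating macrophages, lies at chr12:42828418-42835689 (+ strand). It was at 5.72, 6.32 and 4.34 CPM in the cholesterol libraries, against 9.41, 10.6 and 11.8 CPM in the PBS libraries. The level was 51.6% of that in PBS (log2 fold change -0.96 ± 0.146, SE, adjusted p = 5.21e-04), between the steep falls of Cx3cr1 and Siglec10 and the shallow one of Csf1r.

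Csf1r, the receptor for CSF1 and IL-34 on which microglia depend for survival, lies at chr18:54546659-54590415 (+ strand) and was the most abundant of the 9. It was at 101, 117 and 92.1 CPM in the cholesterol libraries, against 133, 137 and 134 CPM in the PBS libraries. The cholesterol libraries varied more than the PBS libraries but stayed below them. The log2 fold change was -0.38 ± 0.072 (SE, adjusted p = 0.00198), or 77.0% of the PBS level.

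P2ry12, the ADP receptor that guides microglial processes, lies at chr2:143481430-143523361 (- strand) and was low throughout. It was at 2.76, 3.56 and 3.72 CPM in the cholesterol libraries, against 3.97, 4.89 and 3.57 CPM in the PBS libraries. The groups overlapped, since PBS replicate 3 lay below cholesterol replicate 3. The log2 fold change of -0.31 ± 0.172 (SE) had an adjusted p of 0.185, which does not show that its level was the same. P2ry12 lies within Med12l, a gene of the opposite strand at 26.1 ± 1.76 CPM in cholesterol libraries and 29.3 ± 0.798 CPM in PBS libraries (SD, n = 3 each). No source used here says whether the counting used the strand, so reads of Med12l could be counted in P2ry12 and its value is uncertain.

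Spi1, the gene of PU.1, lies at chr3:77073012-77092393 (+ strand). It was at 19.7, 25.4 and 19.0 CPM in the cholesterol libraries, against 35.9, 36.7 and 35.2 CPM in the PBS libraries. The PBS libraries agreed closely and cholesterol replicate 2 stood above the other two of its group. The log2 fold change was -0.75 ± 0.0996 (SE, adjusted p = 2.20e-04), or 59.5% of the PBS level.

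Spic, the gene of SPI-C, lies at chr7:23069821-23077548 (- strand). It was at 1.46, 1.41 and 1.06 CPM in the cholesterol libraries, against 3.54, 3.65 and 4.51 CPM in the PBS libraries. These rest on 93, 96 and 68 counts in the cholesterol libraries and 250, 251 and 309 counts in the PBS libraries. Spic fell to 33.6% of the PBS level (log2 fold change -1.57 ± 0.191, SE, adjusted p = 1.27e-04), further than its relative Spi1. The log2 ratio of Spic to the mean of the pan-myeloid list averaged -4.40 in cholesterol libraries and -3.33 in PBS libraries, against -0.38 and -0.12 for Spi1.

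Aif1 encodes IBA1, the calcium- and actin-binding protein stained in most microglial histology, at chr20:3646777-3652668 (+ strand). It was at 19.2, 30.8 and 18.8 CPM in the cholesterol libraries, against 34.4, 39.6 and 39.9 CPM in the PBS libraries. Cholesterol replicate 2 lay closer to the PBS libraries than to the others of its own group. The log2 fold change was -0.72 ± 0.162 (SE, adjusted p = 0.00504), and -0.996 without that library (adjusted p = 1.61e-05).

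Il10, the gene of an anti-inflammatory cytokine that macrophages secrete, lies at chr13:42472839-42477313 (+ strand). It was at 0.768, 0.795 and 0.372 CPM in the cholesterol libraries, against 2.72, 2.36 and 2.58 CPM in the PBS libraries. The cholesterol values rest on 49, 54 and 24 counts and the PBS values on 192, 162 and 177 counts, which made Il10 the least precise of the 9. The mean was 25.4% of the PBS level (log2 fold change -1.98 ± 0.283, SE, adjusted p = 3.42e-04).

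Levels of different genes can be set beside each other only per length, in FPKM (fragments scaled to transcript length and library size). In PBS libraries Csf1r led with 27.0 ± 0.523 FPKM (SD, n = 3), followed by Aif1 with 17.4 ± 1.43, Spi1 with 16.03 ± 0.346, Cx3cr1 with 8.45 ± 0.405 and Tmem119 with 3.78 ± 0.433 FPKM. Siglec10, Spic, Il10 and P2ry12 followed in that order between 3.08 and 1.23 FPKM. The values of Aif1 and Spi1 overlapped over the PBS libraries, as did those of Siglec10 and Spic. In cholesterol libraries Csf1r, Aif1, Spi1, Cx3cr1 and Tmem119 kept that order, at 21.0 ± 2.55, 10.6 ± 3.14, 9.61 ± 1.59, 2.61 ± 0.363 and 1.96 ± 0.357 FPKM (SD, n = 3 each). P2ry12, last in PBS libraries, averaged 0.996 FPKM in cholesterol libraries, between Siglec10 with 1.04 and Spic with 0.922, and the values of these 3 genes overlapped. Il10 was last in cholesterol libraries with 0.462 FPKM.

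To ask whether the genes fell alike, the fit was repeated with each library scaled so that the mean log2 CPM of the 10 pan-myeloid genes was equal in all libraries. This shifts the median of all genes to 0.52, which by itself makes lower calls rare among all genes. A gene that moved as the myeloid list did on average has a relative fold change near 0. Of the 10 pan-myeloid genes themselves, 3 were lower and 2 higher on this scale. On this scale 5 of the 9 genes were lower in cholesterol libraries, against 1.45% of all genes tested. They were Il10 with a relative log2 fold change of -1.49 ± 0.315 (SE, adjusted p = 1.17e-05), Cx3cr1 with -1.20 ± 0.151 (adjusted p = 7.37e-14), Siglec10 with -1.08 ± 0.191 (1.74e-07), Spic with -1.07 ± 0.250 (7.78e-05) and Tmem119 with -0.46 ± 0.175 (0.0158). The other 4 did not pass, namely Spi1 with -0.25 ± 0.149, Aif1 with -0.25 ± 0.149, Csf1r with 0.12 ± 0.145 and P2ry12 with 0.21 ± 0.213. Without cholesterol replicate 2, 8 of the 9 passed, with Csf1r higher (0.15, adjusted p = 0.0103) and Aif1 and Spi1 lower (-0.37 and -0.26). The call for Tmem119 ended without PBS replicate 3 (adjusted p = 0.127) or without cholesterol replicate 3 (adjusted p = 0.104).

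The pan-myeloid list was itself uneven. Of its 10 genes 6 were lower and 0 higher (median -0.57), or 60% called against 40.3% of all genes. The lower genes included the phosphatase gene Ptprc (CD45, -0.82), the lysosomal membrane gene Laptm5 (-0.86) and the integrin genes Itgb2 (-0.80) and Itgam (-0.61). The macrophage lysosomal gene Cd68 stood at 29.0 ± 3.42 CPM in cholesterol libraries and 28.1 ± 0.271 CPM in PBS libraries (SD, n = 3 each), a log2 fold change of 0.05 that was -0.02 with scaling to the library median and -0.05 without cholesterol replicate 2. The relative scale therefore depends on which genes stand for the myeloid level. Csf1r alone in that place shifts the median of all genes to 0.40. On that scale 7 of the other 8 genes were lower, against 2.19% of all genes tested. These included Aif1 at -0.36 (adjusted p = 0.0207) and Spi1 at -0.38 (adjusted p = 0.0102), while P2ry12 stood at 0.09 (adjusted p = 0.724). Relative to the other homeostatic genes, the sign of Csf1r turned to -0.19 and that of P2ry12 to -0.12, neither of which passed.

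**Figure D2:**
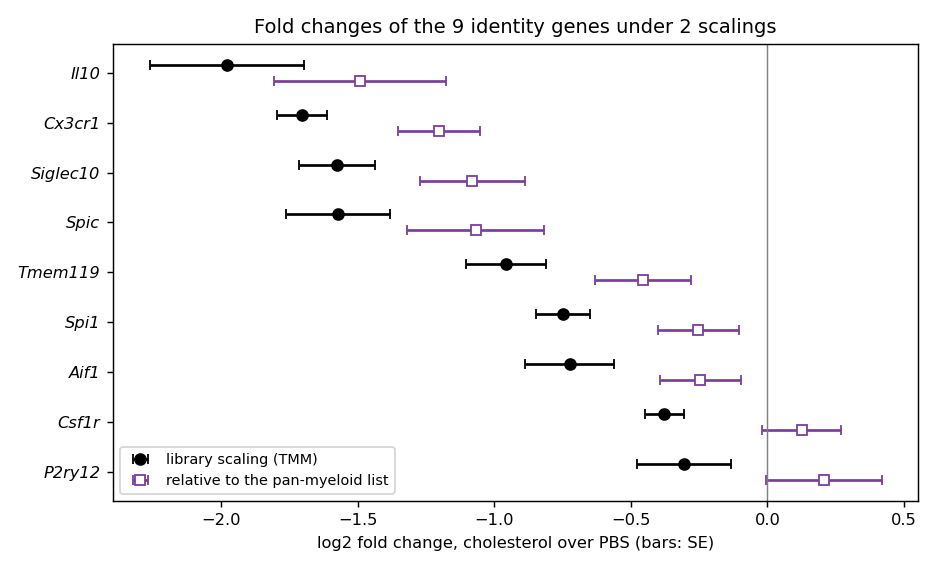
Log2 fold change of each gene, cholesterol over PBS, with SE, for ordinary library scaling (filled circles) and relative to the pan-myeloid list (open squares). Il10, Cx3cr1, Siglec10 and Spic stay at or below -1.07 on both scales, while the open squares of Csf1r and P2ry12 lie at 0.12 and 0.21.

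Library by library, the log2 ratio of Cx3cr1 to the mean of the pan-myeloid list was -1.15, -1.13 and -1.01 in cholesterol libraries and 0.07, 0.15 and 0.10 in PBS libraries. The ratio was tight within each group and the groups were more than 1 log2 unit apart. That of Siglec10 was as far apart, with a wider spread in PBS libraries, at -3.18, -3.17 and -3.22 in cholesterol libraries and -2.17, -2.18 and -1.99 in PBS libraries. That of Spi1 was -0.37, -0.35 and -0.41 in cholesterol libraries and -0.10, -0.12 and -0.14 in PBS libraries, a small gap with no overlap. Csf1r was the one gene whose ratio was higher in every cholesterol library, at 2.00, 1.85 and 1.87, against 1.78, 1.78 and 1.79 in PBS libraries. The ratios of Aif1 and P2ry12 overlapped between groups. An exact permutation test (two-sided) on 3 against 3 libraries cannot go below p = 0.1, which it gave for each of the 7 genes whose ratios did not overlap. The share of all genes whose ratios to the list did not overlap was not computed.

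**Figure D3:**
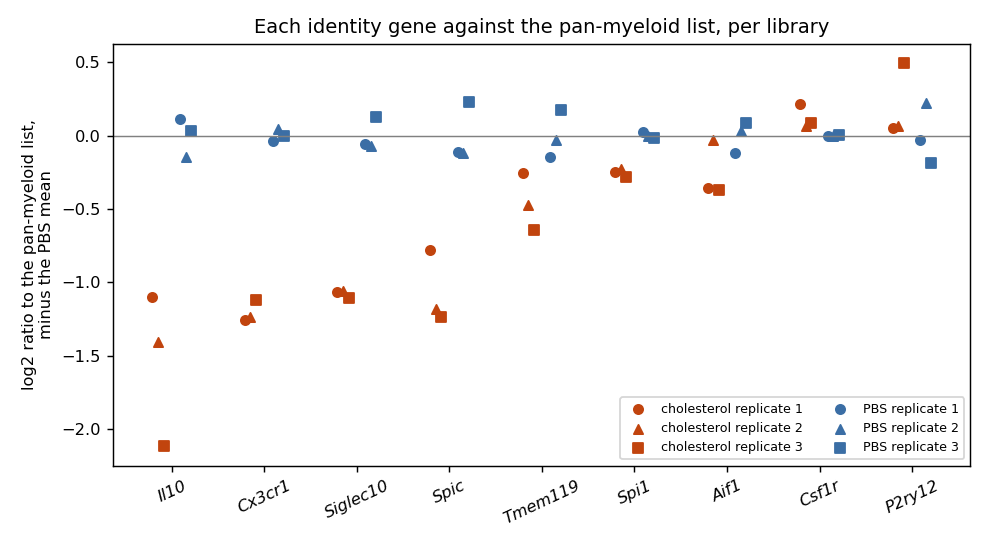
Log2 ratio of each gene to the mean of the pan-myeloid list in every library, minus the gene's PBS mean, with cholesterol points left of PBS points and a marker shape for each replicate. The cholesterol points of Il10, Cx3cr1, Siglec10 and Spic lie well below 0, and those of Csf1r lie just above the PBS points.

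Genes were also set against each other in pairs. Over all 36 pairs, which share genes, the ratios of 25 did not overlap between the groups, among them Tmem119 to Csf1r, Spi1 to Csf1r, P2ry12 to Tmem119 and Spic to Il10, and no background share was computed for pairs. Among neighbours in the order of fold change, which differ least, 1 pair was apart. The log2 ratio of Spic to Tmem119 was -1.97, -2.15 and -2.03 in cholesterol libraries and -1.41, -1.53 and -1.39 in PBS libraries, a difference of -0.61 with no overlap. The ratios of Il10 to Cx3cr1, Cx3cr1 to Siglec10, Siglec10 to Spic, Tmem119 to Spi1, Spi1 to Aif1, Aif1 to Csf1r and Csf1r to P2ry12 overlapped between the groups. Within the cholesterol group, most genes shared the highest or the lowest library, and no share over all genes was computed for this. Cholesterol replicate 1 lay above the group mean for some (0.33 log2 units for Il10) and below it for others (-0.17 for Cx3cr1). In 7 of the 9 the lowest value was in cholesterol replicate 3, and in 7 the highest was in cholesterol replicate 2, where the mean of the pan-myeloid list lay 0.24 log2 units above its group mean, against -0.12 and -0.13 in the other two. Spic was highest in cholesterol replicate 1 and P2ry12 in cholesterol replicate 3, both by little over cholesterol replicate 2 (1.46 against 1.41 CPM for Spic and 3.72 against 3.56 CPM for P2ry12). Without cholesterol replicate 2, all 8 calls of a fall remained.

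Other homeostatic microglia genes were divided. Of 24 tested, 9 were lower and 2 higher (median -0.23), or 45.8% called in either direction against 40.3% of all genes. Siglec5, another sialic acid-binding receptor, fell to 48.1 ± 7.05 CPM in cholesterol libraries, against 106 ± 6.98 CPM in PBS libraries (SD, n = 3 each), a log2 fold change of -1.14. Entpd1, the ectonucleotidase CD39 that degrades extracellular ATP (-0.69), and the complement genes C1qa (-0.81) and C1qb (-0.76) also fell. The number higher was 1 with scaling to the library median and without cholesterol replicate 1 or any 1 of the PBS libraries. The genes that rose were Trem2, a lipid-sensing receptor of microglia, and Bin1, a membrane-bending protein also expressed in oligodendrocytes (0.12). Trem2 was at 13.5, 16.5 and 14.9 CPM in cholesterol libraries, against 12.2, 10.2 and 11.3 CPM in PBS libraries, a log2 fold change of 0.41 (adjusted p = 0.00899). Relative to the pan-myeloid list, 1 of the 24 genes was lower (Siglec5, -0.64) and 7 were higher, where the median of all genes was 0.52. Over all genes tested, 1.45% were lower on that scale, and the share higher was not computed.

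Of 14 other transcription factors of microglia and macrophages tested, 11 were lower and 0 higher (median -0.55). In either direction 78.6% were called, against 40.3% of all genes. Ikzf1, which encodes the lymphoid and myeloid regulator Ikaros, had a log2 fold change (-1.95) close to that of Il10. It was at 4.08, 5.52 and 9.91 CPM in cholesterol libraries, against 23.6, 26.2 and 25.7 CPM in PBS libraries. Maf (-0.71), the interferon regulatory factors Irf5 (-0.66) and Irf8 (-0.49) and Sall1 (-0.15) fell as well. The call for Sall1, a microglial factor in the brain, ended without PBS replicate 1 (adjusted p = 0.105), PBS replicate 2 (0.08695) or cholesterol replicate 2 (0.0587). Sall1 was at 12.0 ± 0.639 FPKM in cholesterol libraries and 13.2 ± 0.433 FPKM in PBS libraries (SD, n = 3 each). Which cells of the cultures expressed it was not tested. Relative to the pan-myeloid list, Ikzf1 was the one factor of the 14 that was lower (-1.42, adjusted p = 1.27e-16). On that scale, where the median of all genes was 0.52, 3 factors were higher: Sall1 (0.37), Cebpb (0.40) and Mef2c (0.49). Over all genes tested, 1.45% were lower on it, and the share higher was not computed.

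**Figure D4:**
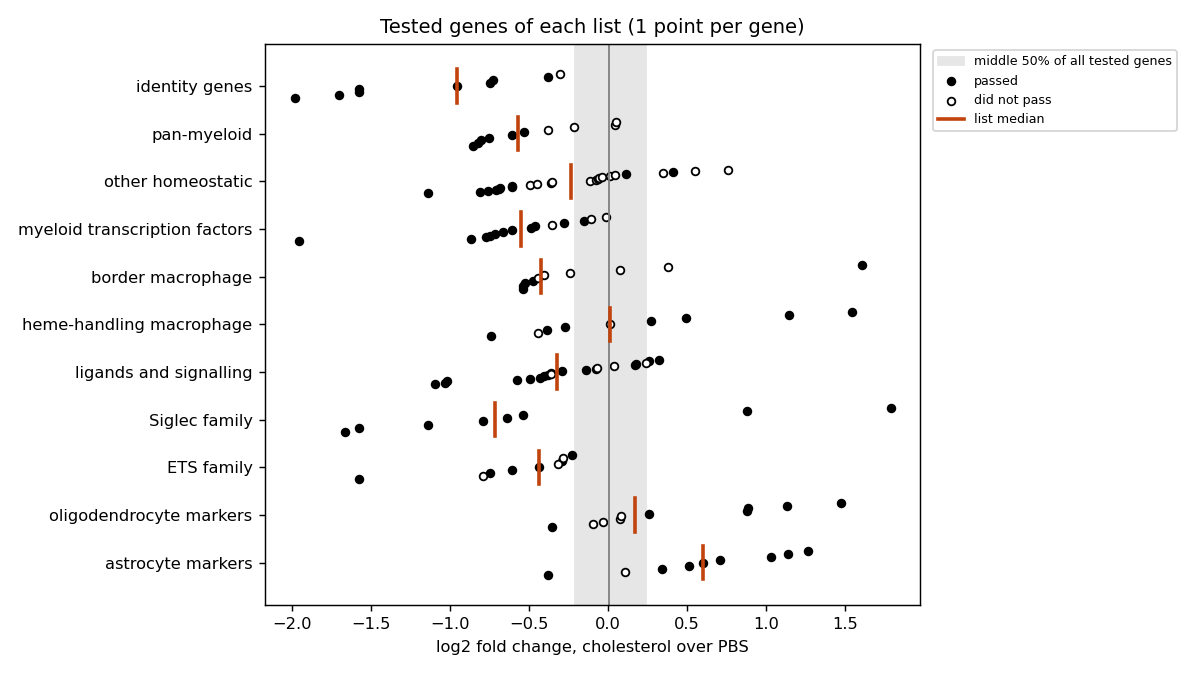
Log2 fold change, cholesterol over PBS, of the tested genes of each list, with 1 point per gene, filled where the adjusted p was under 0.05, and a bar at the list's median. The grey band holds the middle 50% of all genes tested, from -0.21 to 0.24, and the medians of the identity genes (-0.96) and pan-myeloid genes (-0.57) lie below it.

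Among 9 selected genes of the ETS family, 6 were lower and 0 higher (median -0.44), or 66.7% called against 40.3% of all genes. That count includes Spi1 and Spic themselves, and other members of the family were not read as a list. Elf1 (-0.44) and Ets1 (-0.29) also fell. Spib, the third gene of the PU.1 subfamily, was close to the detection floor at 0.170 ± 0.212 CPM in cholesterol libraries and 0.295 ± 0.163 CPM in PBS libraries (SD, n = 3 each). Among the Siglec family, 6 of 8 genes were lower, Siglec10, Siglec5 and Siglec1 included, and 2 higher. This is 100% called, against 40.3% of all genes. With only genes averaging at least 1 FPKM, Siglec1, Cd22, Siglec8 and Siglec15 were not tested. The genes left, Siglec5, Siglec10, Cd33 and Mag, were all called, 3 lower and 1 higher. Siglec8 fell to 0.869 ± 0.247 CPM in cholesterol libraries, against 2.76 ± 0.324 CPM in PBS libraries (SD, n = 3 each; log2 fold change -1.67). The 2 genes that rose were Siglec15, a receptor known from osteoclasts (1.79), and Mag, the myelin-associated glycoprotein of oligodendrocytes (0.88). Siglec15 was low, at 1.05 ± 0.221 CPM in cholesterol libraries and 0.303 ± 0.233 CPM in PBS libraries (SD, n = 3 each). Its PBS values rest on 23, 36 and 4 counts. Genes of this family resemble each other in sequence, and the treatment of reads that match several of them was not stated.

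The ligands and signalling partners of the 9 genes moved both ways, with 11 of 20 tested lower and 4 higher (median -0.32). In either direction 75% were called, against 40.3% of all genes. The number higher was 2 with scaling to the library median and without cholesterol replicate 1, PBS replicate 1 or PBS replicate 3. Csf1, the ligand of CSF1R, rose to 44.1, 40.1 and 43.5 CPM in cholesterol libraries, against 34.1, 32.4 and 35.8 CPM in PBS libraries (log2 fold change 0.32, adjusted p = 0.00206), opposite to its receptor. Cx3cl1, the ligand of CX3CR1, fell (-0.43, adjusted p = 0.00386), as did Cd24, a ligand of Siglec receptors (-0.36), and Tgfbr1, a receptor of the TGF-beta signal that maintains microglia (-0.29). Il10ra, the ligand-binding chain of the IL-10 receptor, had a log2 fold change of -0.40 (adjusted p = 0.0165). Leaving out cholesterol replicate 1 or 3, or PBS replicate 1 or 2, ended that call for Il10ra, at adjusted p between 0.0514 and 0.0679.

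Of the 20 genes, 3 were also lower relative to the pan-myeloid list, against 1.45% of all genes tested, and 8 were higher. That scale puts the median of all genes at 0.52, so an unchanged gene tends to stand higher on it. The share of all genes called higher on that scale was not computed. Ptpn6, the phosphatase SHP-1 that inhibitory receptors recruit, was at 43.6, 60.1 and 40.2 CPM in cholesterol libraries, against 90.1, 99.5 and 102 CPM in PBS libraries (log2 fold change -1.02). Inpp5d, the lipid phosphatase SHIP1, fell to 15.9 ± 3.80 CPM in cholesterol libraries, against 32.5 ± 1.64 CPM in PBS libraries (SD, n = 3 each; -1.03). Plcg2, a phospholipase of immune receptor signalling, fell to 5.61 ± 0.447 CPM in cholesterol libraries, against 12.0 ± 0.394 CPM in PBS libraries (SD, n = 3 each; -1.09). Their relative log2 fold changes were -0.53, -0.54 and -0.58, with adjusted p of 7.30e-04, 8.13e-04 and 0.00170. Ptpn11, the related phosphatase SHP-2 that inhibitory receptors also recruit, rose to 720 ± 34.8 CPM in cholesterol libraries, against 637 ± 1.86 CPM in PBS libraries (SD, n = 3 each; 0.18).

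Genes of border-associated macrophages, the macrophages of the meninges and vessels, were 4 lower and 1 higher of 10 tested (median -0.42), or 50% called in either direction, near the 40.3% of all genes. Stab1 (-0.52), Folr2 (-0.54) and Siglec1 (-0.54), a scavenger receptor, a folate receptor and a sialic acid-binding receptor, fell. Lyve1, a hyaluronan receptor, was at 0.634 ± 0.104 CPM in cholesterol libraries and 0.207 ± 0.0368 CPM in PBS libraries (SD, n = 3 each; log2 fold change 1.61), and its call ended without cholesterol replicate 1 (adjusted p = 0.0596). A list of genes of heme-handling macrophages, the cells in which Spic is known, had 3 of 9 tested lower and 4 higher. In that list 77.8% were called in either direction, against the 40.3% of all genes. Of its genes of heme and iron themselves, Hmox1, the enzyme that opens heme (-0.74), Bach1, its repressor (-0.39), and the iron exporter gene Slc40a1 (-0.27) fell. The biliverdin reductase gene Blvrb (0.49) and the ferritin gene Fth1 (0.27), which overlaps 5 other annotated genes, rose. The other genes that rose, the adhesion gene Vcam1 (1.14) and the prostaglandin-degrading enzyme gene Hpgd (1.54), are used as markers of such macrophages but do not act on heme or iron. Which cells of the cultures expressed Vcam1 and Hpgd was not tested. Hpgd was low, at 0.998 ± 0.315 CPM in cholesterol libraries and 0.342 ± 0.0772 CPM in PBS libraries (SD, n = 3 each).

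Markers of further cell types were read in the same libraries. Astrocyte markers summed to between 2660 and 2932 CPM in cholesterol libraries and between 1735 and 1753 CPM in PBS libraries. Of 9 tested, 7 were higher and 1 lower, or 88.9% called against 40.3% of all genes. The part of the oligodendrocyte and astrocyte levels in the values of the 9 identity genes was not tested. The T cell genes Cd2, Lck and Cd247 summed to at most 1.75 CPM in cholesterol libraries and 2.01 CPM in PBS libraries, and 0 of 3 passed. The neutrophil genes S100a8, Elane, Ngp and Cxcr2 together stayed at or below 0.0776 CPM in cholesterol libraries and 0.113 CPM in PBS libraries. The B cell gene Cd79a was at 0 in all cholesterol libraries and reached at most 0.0584 CPM in a PBS library, while Cd79b, which microglia of mice also express, was at 2.42, 3.67 and 2.95 CPM in cholesterol libraries, against 5.82, 5.71 and 7.44 CPM in PBS libraries (log2 fold change -1.07). A list of vessel cell genes had 1 lower and 2 higher of 6 tested, or 50% called, near the 40.3% of all genes. Pecam1, expressed by endothelial and also by myeloid cells, was lower (-1.15), and the endothelial gene Cdh5 (1.47) and the pericyte gene Pdgfrb (0.66) were higher. Cdh5 was low, at 0.591 ± 0.137 CPM in cholesterol libraries and 0.212 ± 0.122 CPM in PBS libraries (SD, n = 3 each). Of 8 neuron markers 1 was lower (Map2, -0.46) and 0 higher, or 12.5% called against 40.3% of all genes.

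Among the genes whose log2 CPM followed Cx3cr1 most closely over the 6 libraries, by Pearson correlation and with a mean of at least 1 FPKM, were Cebpz, Swap70 and Mt1, with r between 0.9988 and 0.9993. Their log2 fold changes of -0.26, -0.85 and -1.14 were all smaller than that of Cx3cr1. For Csf1r they were Clec4a3, Plekha2, Ctsz and Hcls1 (r of 0.9953 to 0.9979), and for Aif1 they were Apobec1, Slco2b1, Bcl2a1 and Piezo1 (r of 0.9968 to 0.9990). These coefficients describe 6 libraries that differ mainly by treatment, so any gene that separates the treatments cleanly scores high.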

How the data were processed

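Per the file headers, the deposited table held whole-number counts and FPKM per Ensembl gene for the 6 libraries. Per the submitters' processing notes, build rn6 and the tools StringTie 2.1.6, HISAT2 2.2.1, edgeR, DESeq2 and cutadapt 1.9 were named, with no role given. How the authors' counts were made, and whether strand was used, is not given in the sources used here. For testing, use was made of edgeR 4.0.16 (R 4.3.3) on these counts: filterByExpr kept 16182 of 20422 genes, TMM scaled the libraries, and the quasi-likelihood test was two-sided, with Benjamini-Hochberg adjustment over all genes tested and a threshold of 0.05. Levels are TMM-scaled CPM, ratios use log2 CPM with a prior count of 0.5, and SE is the fold change over the square root of F. For the relative scale, library factors were set so that the mean of a list was equal in all libraries. The method was tested on simulated data. From each list up to 4 called genes with the smallest p were named, or the 2 most abundant where 0 were called. Further genes, such as ligands and Trem2, were named after their values were seen. Members and lists were chosen with earlier results of these data known. DESeq2 1.42.0 and other settings were alternatives. Some genes that this rule names are not reported here. Floors cover counting error only.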

Additional observations from a re-analysis of the deposited data

How the results depend on the processing

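The 8 calls of a fall among the 9 genes, and the absence of a rise, were the same under the 12 alternatives tried for them: DESeq2 size factors, scaling to the library median, no filter, a mean of at least 1 FPKM, the DESeq2 Wald test, the replicate block and leaving out each library. P2ry12 passed under none of them (log2 fold change -0.41 to -0.17, adjusted p 0.112 to 0.515). With the replicate number as a block, 6221 genes were called in all, against 6514 without it. The numbers share no batch in the labels, and same-numbered libraries did not deviate together (correlations -0.0052, -0.0452 and -0.0082). The relative scale depended more on the settings. The number of genes that differed from the pan-myeloid list was 4 to 8 when a library was left out, with 8 without cholesterol replicate 2. It was 6 with the DESeq2 Wald test. With the other homeostatic genes in place of that list, 7 of the 9 differed, and with Csf1r alone, 7 of the other 8. With the other homeostatic genes in that place, the relative log2 fold changes of P2ry12 and Csf1r were -0.12 and -0.19. The median of the list of heme-handling macrophages was 0.016, and turned to -0.046 with scaling to the library median and to -0.012 without PBS replicate 1; with a library left out it ranged from -0.040 (without cholesterol replicate 2) to 0.047. Cd68 turned to -0.017 with scaling to the library median, and ranged from -0.048 (without cholesterol replicate 2) to 0.121 with a library left out. The cause of these changes was not tested. The lists and the genes named from them were rerun under alternatives chosen after seeing the data, and the number of lower genes was 8 to 12 of the other homeostatic list, 9 to 11 of the transcription factors and 3 to 6 of the Siglec family. The count of 3 for the Siglec family came with a mean of at least 1 FPKM, which left fewer of its genes tested. Counts of 24 to 54 limit Il10 in cholesterol libraries.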
